A study of Homo sapiens with 6 samples.

Results

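The 5 complexes of oxidative phosphorylation were followed in Hs578T cells, a mesenchymal basal-like human breast cancer line, carrying an inducible HOXA5 gene, which codes for a homeobox transcription factor. The members were all probe sets whose platform symbol begins with NDUFA, NDUFB, NDUFC, NDUFS, NDUFV, UQCR, COX4 to COX8 or ATP5, or is CYC1, SDHA, SDHB, SDHC or SDHD. This prefix rule took in 107 of the 22283 probe sets of the array and 74 of the 11963 genes named there, of which 34 were assigned to complex I, 3 to complex II, 7 to complex III, 13 to complex IV and 17 to complex V. The rule matches symbols and uses no measured value, but it was chosen with earlier results of these data known. The rule also took in 5 assembly factors of the NDUFAF series, the ATP synthase inhibitor ATP5IF1, the pseudogene ATP5MC2P1 and the antisense RNA NDUFB2-AS1, which are not structural subunits.

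RNA was taken at 0 h, 6 h and 9 h after induction in each of 2 experiments, which gave 6 arrays and 2 per time point. Cells of all 3 groups were seeded onto a 10 cm dish 24 h before induction, and the labels describe a pair of RNA batches, which are called experiment 1 and experiment 2 here. What induced HOXA5, at what dose, and whether the line is a single clone are not given in the sources used here. No array of uninduced cells at 6 h or 9 h was analysed here, so induction and time in culture cannot be told apart. HOXA5 itself was not analysed here because no probe set was named for it. The labels do not say whether the cultures of the 2 experiments were separate, so the p-values measure the spread between these samples, which may be technical.

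The electron transport chain passes electrons from NADH through complex I, and from succinate through complex II, to ubiquinone, then through complex III to cytochrome c and through complex IV to oxygen. Complexes I, III and IV pump protons across the inner mitochondrial membrane, and complex V, the ATP synthase, lets them flow back to make ATP. Most subunits are encoded in the nucleus and imported, and the genes on these arrays are of that kind.

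The deposited intensities had not been scaled between arrays, with medians between 18.7 and 95.7, so they were quantile normalised, and all intensities below are on that scale. Values under 12.7 were set to that floor before the logarithm was taken. Of the members, 104 probe sets and 73 genes were tested, each gene through its tested probe set with the highest mean log2 intensity, and 69 genes were above the floor on all 6 arrays. The median of the members' mean intensities was 653, beside 91.4 for all 10444 tested genes. All 14 mesenchymal markers of the line were tested and 13 were above the floor on every array. Their median log2 change was -0.04 at 6 h and -0.37 at 9 h, where 10 were below 0 and 4 above. Some differed widely between the experiments at 0 h, with 463 and 25.2 for COL3A1 and 841 and 292 for CDH11. Others, such as FN1 with 3365 and 2722, stood closer. The part of these differences in the results was not tested. Markers of leukocytes, endothelium and muscle were dim (medians of 32.2, 11.9 and 17.3), with 4 of 6, 1 of 3 and 2 of 7 tested genes above the floor on every array. The muscle troponin TNNT1 was an exception, with 199 and 223 at 0 h, 101 and 118 at 6 h, then 110 and 94.7 at 9 h. It was lower in both experiments at both times, with log2 changes of -0.95 at 6 h and -1.04 at 9 h. TNNC2, another muscle troponin, went the other way from below the floor, with 7.2 and 6.53, then 17.9 and 52.5, then 33.7 and 62.55. Of the 7 muscle markers, 3 were below 0 and 4 above at 6 h, and 5 and 2 at 9 h. Their part in the results was not tested. PTPRC, the pan-leukocyte marker, was among those below the floor on some arrays. Of 9 tested luminal markers, 8 were above the floor on every array, and their median was 40. The summed intensity of the 9 ranged from 1212 to 3932 at 0 h, from 1236 to 2225 at 6 h and from 1339 to 2371 at 9 h. KRT18 alone gave most of that sum, with 3510 and 851 at 0 h, 1908 and 781 at 6 h, then 1950 and 929 at 9 h. The part of these markers in the results below was not tested. The 3′/5′ intensity ratio of the control probe sets, a sign of RNA quality, was 0.863 to 1.31 for GAPDH and 0.918 to 1.82 for ACTB, both highest on the 9 h array of experiment 1, and its part was not tested either.

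Respiratory chain genes read lower at 6 h than at 0 h, with medians of the 5 complexes between -0.38 (complex III) and -0.16 (complex II). The median log2 change was -0.30 over the 73 genes, beside 0.01 over all tested genes and 0.02 over the 807 tested genes at least as bright as the median member. Of the 73 genes, 45 (61.6%) were lower in both experiments, where the background over all tested genes was 25%, and 1 was higher in both, where the background was 26.9%. Both 6 h arrays lay below both 0 h arrays for 33 genes (background 15.3%) and above them for 0 genes (background 16.8%). A difference of at least 1.5-fold in both experiments was seen downward for 9 genes (background 3.97%) and upward for 0 (background 4.61%). No member passed an adjusted p of 0.05 in limma with Benjamini-Hochberg adjustment over all 18360 probe sets (0 of 104; background 0%), with or without the experiment as a term. The lowest adjusted p of a gene was 0.969 without that term and 0.303 with it. At an unadjusted p under 0.05 in limma, 6 member probe sets were lower (background 2.28%) and 0 were higher (background 2.48%). With the experiment as a term, 22 were lower at that unadjusted threshold (background 4.83%) and 0 were higher (background 4.87%). Experiment 2 had the larger difference, with a median of -0.48 beside -0.16 in experiment 1, and dropping its 6 h array brought the median over both to -0.17, while dropping the 6 h array of experiment 1 brought it to -0.43.

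The difference from 0 h was of similar size at 9 h. The median log2 change was -0.33, beside -0.02 over all tested genes and -0.04 over those at least as bright as the median member. Of the 73 genes, 42 were lower in both experiments (background 29.5%) and 3 were higher in both (background 28%), namely UQCRC2, NDUFA5 and NDUFAF1. Both 9 h arrays lay below both 0 h arrays for 32 genes (background 19.4%) and above them for the same 3 (background 19.2%). A difference of at least 1.5-fold in both experiments was seen for 11 genes downward (background 5.27%) and for 0 upward (background 7.15%). At 9 h again 0 of 104 probe sets passed an adjusted p of 0.05 in limma (background 0%), while 12 were lower at an unadjusted p under 0.05 (background 3.3%) and 0 were higher (background 4.11%). With the experiment as a term, 1 member passed, UQCR10, where 0.359% of all probe sets passed in either direction and 0.0327% passed downward; 28 member probe sets were then lower at an unadjusted p under 0.05 (background 6.57%) and 1 was higher (background 7.29%). Experiment 1 had a median of -0.22 and experiment 2 of -0.46. Dropping the 9 h array of experiment 2 moved the median to -0.14, and dropping the one of experiment 1 moved it to -0.52. The 6 h and 9 h comparisons share the 0 h arrays, so they are not independent.

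**Figure D1:**
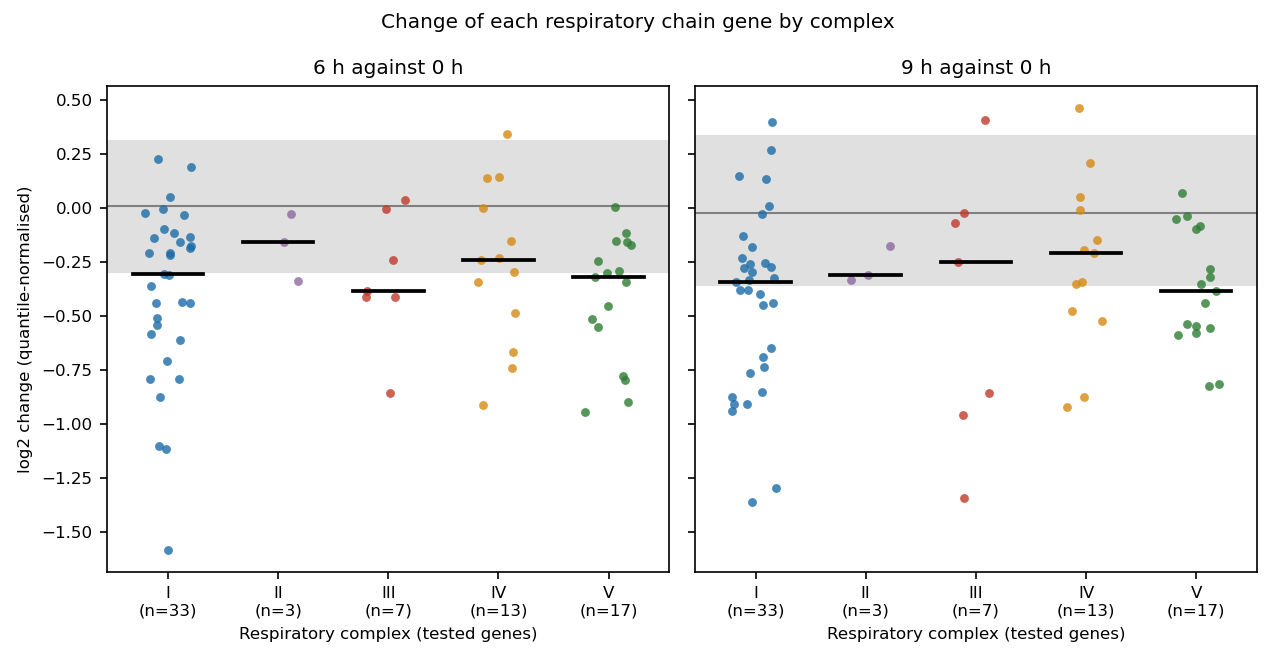
Each point is 1 of the 73 tested genes, placed by respiratory complex, with its log2 change on the vertical axis for 6 h (left) and 9 h (right) against 0 h; black bars are the complex medians, the grey line is the median of all 10444 tested genes and the grey band spans their quartiles. Medians of complexes I, III, IV and V lie between -0.38 and -0.24 at 6 h and between -0.38 and -0.20 at 9 h.

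The members also stood lower in experiment 2 than in experiment 1 after induction. The median log2 difference between the 2 experiments (experiment 2 minus experiment 1) was -0.07 at 0 h, -0.28 at 6 h and -0.37 at 9 h, beside 0.00, 0.03 and 0.04 for all tested genes. This difference was not tested. Some other gene lists also differed between the experiments in their change from 0 h. At 6 h the proteasome genes had medians of 0.17 in experiment 1 and -0.37 in experiment 2, and the mitochondrial ribosomal genes 0.04 and -0.18. The cytosolic ribosomal genes had -0.02 and 0.01, and the members -0.16 and -0.48. In the plot of the 2 experiments against each other, the points at 6 h lie mostly below the diagonal, with NDUFA1 farthest from it.

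**Figure D2:**
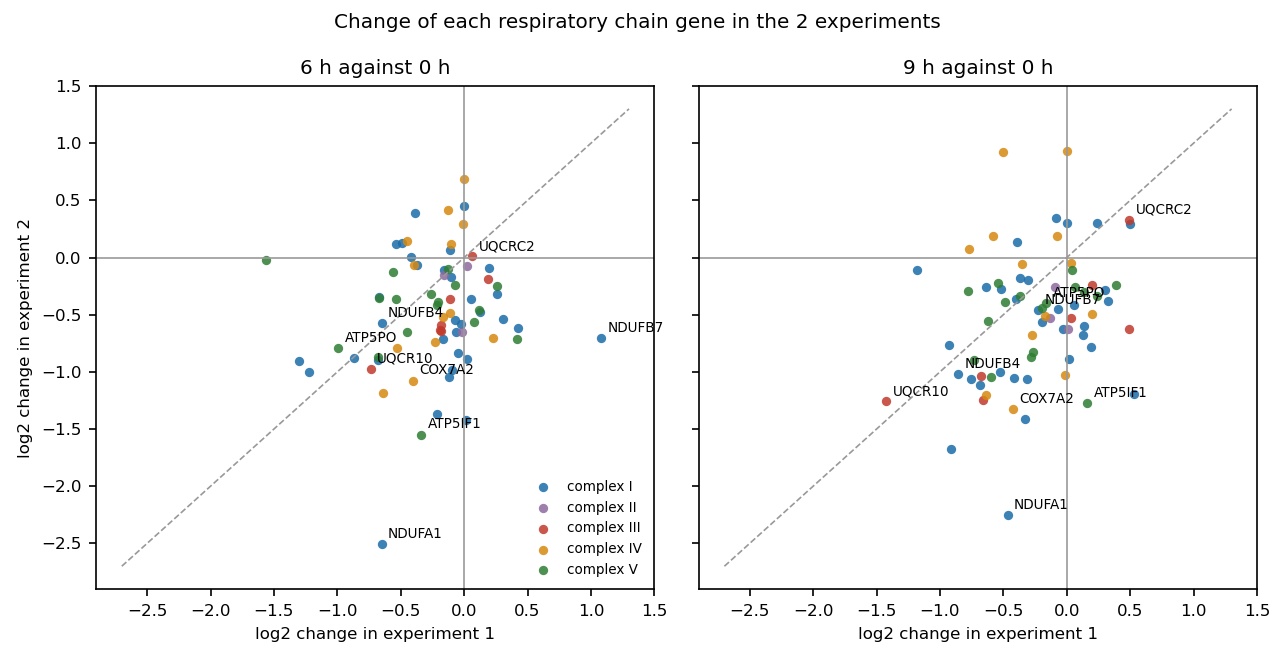
Each point is 1 of the 73 genes, coloured by complex, with its log2 change in experiment 1 on the horizontal axis and in experiment 2 on the vertical axis, for 6 h (left) and 9 h (right) against 0 h; the dashed line marks equal change. Points in the lower left quadrant are the 45 genes at 6 h and 42 genes at 9 h that were lower in both experiments.

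Complex I takes electrons from NADH on its peripheral arm and pumps protons in its membrane arm. Of its 33 tested genes, 18 were lower in both experiments at 6 h (background 25%) and 20 at 9 h (background 29.5%), with medians of -0.30 and -0.34. The 15 tested subunits of the membrane arm had medians of -0.51 at 6 h and -0.38 at 9 h. For the 6 of the NADH-binding module the medians were -0.21 and -0.41, and for the 4 of the quinone-binding module -0.31 and -0.34. These modules were not tested against each other.

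NDUFA1, a small membrane-arm subunit needed for assembly of the complex, read 1671 and 1639 at 0 h, 1065 and 288 at 6 h, then 1211 and 343 at 9 h in experiments 1 and 2. All 4 later arrays were below both 0 h arrays, but the 2 experiments stood far apart. The log2 change was -1.58 ± 0.72 (SE, n = 2 per time) at 6 h and -1.36 ± 0.72 at 9 h. It was -0.65 and -0.46 in experiment 1 alone.

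NDUFA3, another membrane-arm subunit, read 416 and 290 at 0 h, 169 and 155 at 6 h, then 220 and 90.9 at 9 h. The groups at 0 h and at each later time did not overlap, and the log2 changes were -1.10 ± 0.46 and -1.29 ± 0.46. NDUFB4, also of the membrane arm, had closely matched pairs of arrays, with 1082 and 1022 at 0 h, 690 and 687 at 6 h, then 598 and 505 at 9 h. Its log2 change was -0.61 ± 0.22 at 6 h and -0.94 ± 0.22 at 9 h, with an adjusted p of 0.554 at 9 h in limma and 0.083 when the experiment was a term. The 9 h value was 1.91-fold lower, and it stayed between -1.06 and -0.81 when any 1 array was dropped.

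On the peripheral arm, NDUFS7, which carries the last iron-sulfur cluster before ubiquinone, read 294 and 349 at 0 h, 280 and 239 at 6 h, then 155 and 205 at 9 h. The 9 h arrays were below all the others, and the log2 change at 9 h was -0.85 ± 0.30. NDUFV1, which binds NADH, read 664 and 528 at 0 h, 495 and 531 at 6 h, then 292 and 491 at 9 h. Only the 9 h array of experiment 1 stood clearly apart, and the log2 change at 9 h was -0.65 ± 0.31. NDUFS3, of the quinone-binding module, read 836 and 1425 at 0 h against 782 and 723 at 6 h and 672 and 683 at 9 h, a log2 change of -0.69 ± 0.29 at 9 h in which the 0 h arrays themselves differed widely.

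NDUFA5, a subunit of the quinone-binding module, was among the 5 tested complex I genes above 0 at 9 h, beside 28 below 0. It read 278 and 240 at 0 h, 274 and 161 at 6 h, then 327 and 297 at 9 h, a log2 change of 0.27 ± 0.34 at 9 h. Its other probe set was above the floor on only 2 arrays and gives no direction.

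Other membrane-arm subunits differed in how far the experiments matched. NDUFC1 read 779 and 839 at 0 h, 672 and 324 at 6 h, then 541 and 419 at 9 h, or -0.79 ± 0.37 and -0.76 ± 0.37. NDUFB1 read 744 and 526 at 0 h, 465 and 282 at 6 h, then 462 and 242 at 9 h, below both 0 h arrays throughout and in both experiments. NDUFB6 read 440 and 318 at 0 h, 444 and 119 at 6 h, then 503 and 185 at 9 h. Its later arrays of experiment 1 read above the 0 h array of that experiment, and its log2 change at 6 h was -0.70 ± 0.69, or 0.24 when the 6 h array of experiment 2 was dropped. NDUFA13, also known as GRIM-19, read 860 and 1244 at 0 h, 790 and 603 at 6 h, then 684 and 468 at 9 h, with no overlap and a 9 h log2 change of -0.87 ± 0.31. NDUFB7 read 140 at 0 h and 297 at 6 h in experiment 1, but 187 and 115 in experiment 2. NDUFB2, by contrast, read 1143 and 1112 at 0 h, 1022 and 1029 at 6 h, then 999 and 753 at 9 h. These were small differences of -0.14 ± 0.23 and -0.38 ± 0.23, with no overlap between 0 h and later arrays. Its other probe set read 321 and 276 at 0 h, 387 and 279 at 6 h, then 291 and 309 at 9 h. That probe set overlapped between times, with 0.14 ± 0.29 and 0.01 ± 0.29, so the direction of NDUFB2 depends on the probe set.

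NDUFA9, a subunit of the quinone-binding module, and NDUFA8, of the membrane arm, read close to their start. NDUFA9 read 382 and 444 at 0 h and 470 and 366 at 9 h, and NDUFA8 379 and 387 at 0 h and 288 and 426 at 9 h. Their 9 h log2 changes were 0.01 ± 0.28 and -0.13 ± 0.29.

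The assembly factors did not share a direction. NDUFAF3, which acts early in building the quinone module, read 382 and 315 at 0 h, 209 and 172 at 6 h, then 227 and 151 at 9 h, with log2 changes of -0.87 ± 0.33 and -0.91 ± 0.33 and no overlap with 0 h. NDUFAF1, which acts on the membrane arm, read 177 and 147 at 0 h, 122 and 159 at 6 h, then 250 and 180 at 9 h, a log2 change of 0.40 ± 0.34 at 9 h. NDUFAF4 read 178 and 232 at 0 h and 195 and 145 at 9 h, which overlap. NDUFAF7 and NDUFAF5 read at most 42.9 and 17.4 on any array and were below the floor on some.

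**Figure D3:**
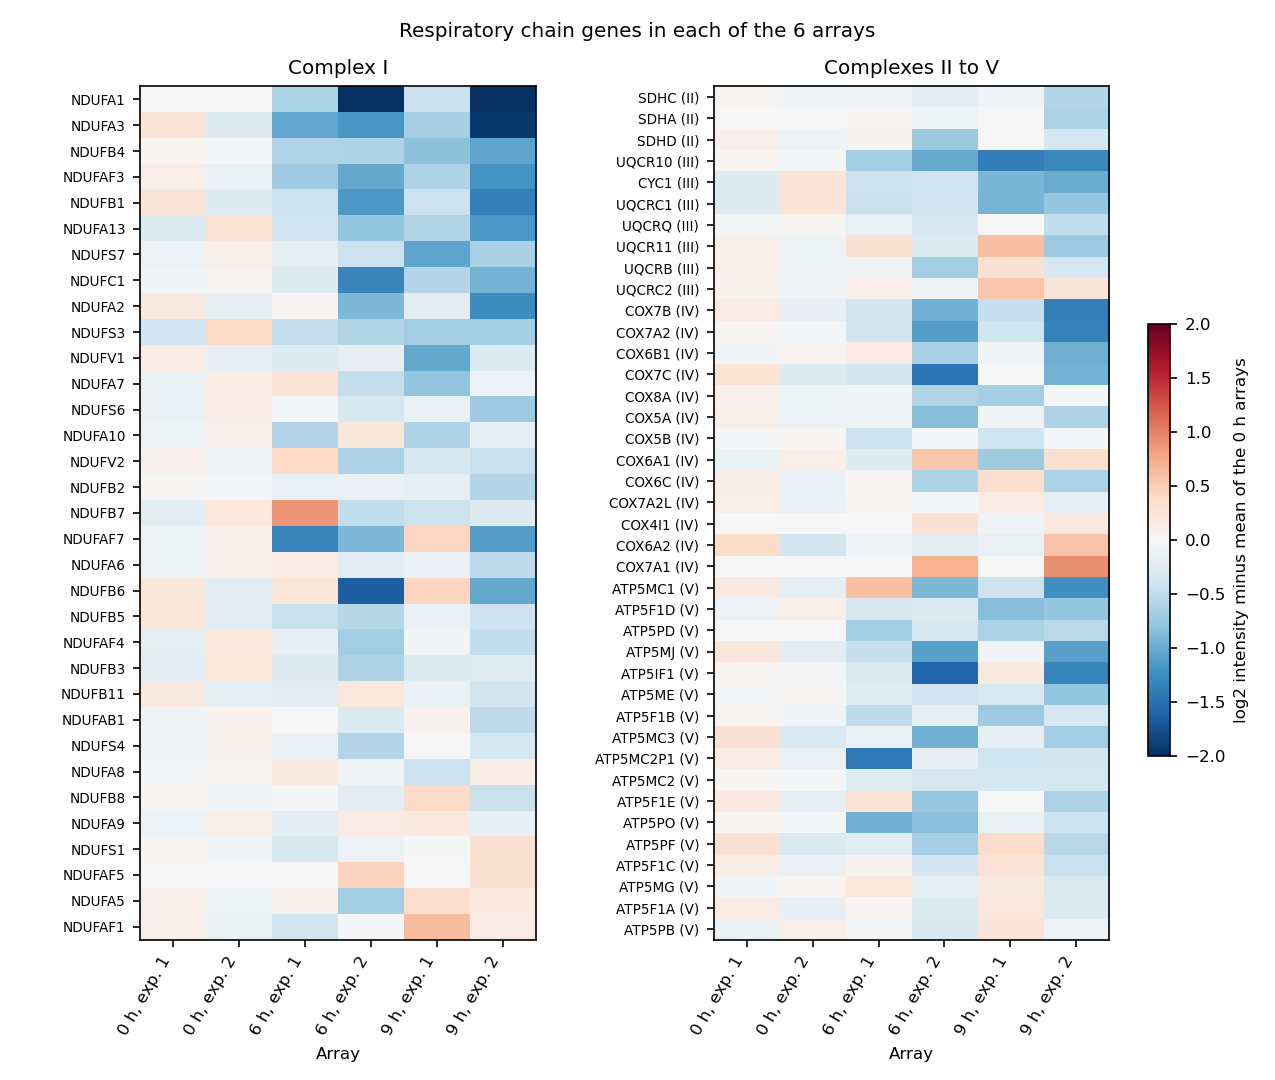
Rows are the 73 tested genes, complex I on the left and complexes II to V on the right, ordered within each complex by the 9 h change; columns are the 6 arrays, and colour gives the log2 intensity minus the mean of the 0 h arrays, cut at 2 on either side. Blue cells (lower than 0 h) are most intense in the 6 h and 9 h arrays of experiment 2, with NDUFA1 the deepest.

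Complex II, succinate dehydrogenase, also works in the citric acid cycle and is built from few subunits, of which 3 genes were named here. SDHA, the flavoprotein that oxidises succinate, read 481 and 477 at 0 h, 488 and 454 at 6 h, then 483 and 310 at 9 h. Only the 9 h array of experiment 2 was apart. The membrane anchors SDHC and SDHD had log2 changes of -0.16 ± 0.28 and -0.34 ± 0.35 at 6 h, and of -0.33 ± 0.28 and -0.17 ± 0.35 at 9 h. The median of the 3 genes was -0.16 at 6 h and -0.31 at 9 h, and it changed sign in 1 of 16 alternatives at each time, reaching 0.03 and 0.00.

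Complex III passes electrons from ubiquinol to cytochrome c, and it held the only member called. UQCR10, a small subunit next to cytochrome c1, read 2020 and 1918 at 0 h, 1213 and 978 at 6 h, then 754 and 802 at 9 h. The 3 times did not overlap, in the order 0 h, 6 h, 9 h. The log2 change was -0.85 ± 0.22 at 6 h (adjusted p of 0.969 in limma) and -1.34 ± 0.22 at 9 h, a 2.53-fold lower value (adjusted p of 0.543). UQCR10 fell at 9 h with the experiment as a term, with an adjusted p of 0.0298 in limma. Over 14 alternatives the adjusted p ran from 0.0298 to 1, and 1 was below 0.05. When any 1 array was dropped, its 9 h log2 change stayed between -1.38 and -1.30.

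CYC1, cytochrome c1, which hands electrons to cytochrome c, read 1843 and 2608 at 0 h, 1627 and 1670 at 6 h, then 1163 and 1099 at 9 h. Each later time was below the one before it in both experiments, with log2 changes of -0.41 ± 0.24 and -0.96 ± 0.24 against 0 h and adjusted p of 0.555 at 9 h in limma (0.0878 when the experiment was a term). UQCRC1, a core protein on the matrix side, had the same order of times: it read 1084 and 1540, then 950 and 993, then 678 and 752, a log2 change of -0.86 ± 0.25 at 9 h.

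UQCRC2, the partner core protein of UQCRC1, was the only member higher in both experiments at 6 h, and it was higher again at 9 h. It read 601 and 547 at 0 h, 629 and 551 at 6 h, then 845 and 686 at 9 h, a log2 change of 0.04 ± 0.24 and then 0.41 ± 0.24. Its other probe set read the opposite way, with 493 and 365 at 0 h, 275 and 240 at 6 h, then 340 and 262 at 9 h, or -0.72 ± 0.29 and -0.51 ± 0.29. The direction of UQCRC2 thus depends on the probe set.

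UQCRB, UQCRQ and UQCR11 are small subunits of the same complex. UQCRB read 1621 and 1395 at 0 h, 1429 and 928 at 6 h, then 1860 and 1182 at 9 h, which overlap. Its log2 change at 9 h was -0.02, but 0.44 on another probe set of nearly the same brightness. UQCR11 read 882 at 0 h and 1241 at 9 h in experiment 1, but 765 and 495 in experiment 2. UQCRQ read 1584 and 1657 at 0 h and 1617 and 1151 at 9 h, also overlapping. The median of the 7 genes was -0.38 at 6 h and -0.25 at 9 h, and at 9 h it was 0.03 in experiment 1 and -0.63 in experiment 2.

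**Figure D4:**
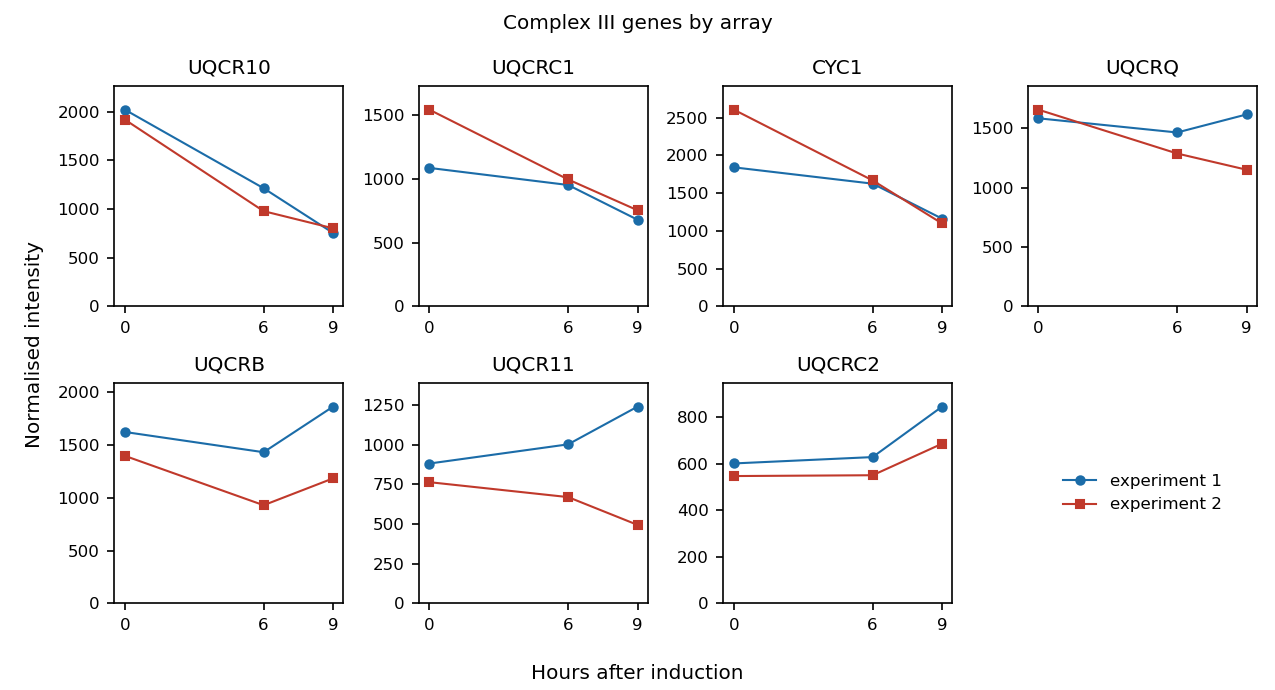
Normalised intensity (vertical axis, from 0) of the 7 complex III genes against hours after induction, 1 panel per gene and 1 line per experiment. UQCR10, UQCRC1 and CYC1 are lower at each later time in both experiments, UQCRC2 is highest at 9 h, and UQCR11 separates by experiment from 882 and 765 at 0 h to 1241 and 495 at 9 h.

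Promoters of respiratory genes are known for sites of NRF1, of the ETS factor GABP and of YY1, which serve as regulators of this gene set. Promoter windows from RefSeq (GRCh38.p14), 250 bases before to 50 after the start, were matched by symbol to 63 member genes; 10 of these have several windows, and the first listed was used. The NRF1 core CGCANGCG was found, on either strand, in 21 windows (33.3%), against 10.6% of all 27305 windows and 14.3% of the 15843 windows of protein-coding genes. The ETS core CCGGAAG was in 18 (28.6%; 10.7% of all and 14.2% of coding), and the YY1 core ATGGCGG in 17 (27%; 5.72% and 7.63%). The last can overlap a start codon followed by an alanine codon. The homeobox core TAATTA was in 0 member windows, against 4.98% of all and 3.34% of coding ones, which says only that these letters are not in those windows. None of the 4 cores contains another, and a match is not a bound site.

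The promoters of 4 complex III genes, NDUFB4 and COX7B are printed, 5′ to 3′ on the gene's strand. Each is the 200 bases before the start. They were picked because their brightest probe sets differed in change within a complex, or were lower together across complexes. The direction of UQCRC2 depends on the probe set and that of UQCR11 on the experiment, so no opposite direction within complex III is established. Capitals mark NRF1 and ETS cores; a core that crosses the start is cut at its last printed base, as in UQCR10 and NDUFB4. The windows are chr22:29767169-29767368 (plus strand) for UQCR10, chr3:48609647-48609846 (minus) for UQCRC1, chr16:21953161-21953360 (plus) for UQCRC2, chr19:1605463-1605662 (minus) for UQCR11, chr3:120596136-120596335 (plus) for NDUFB4 and chrX:77899268-77899467 (plus) for COX7B.
UQCR10: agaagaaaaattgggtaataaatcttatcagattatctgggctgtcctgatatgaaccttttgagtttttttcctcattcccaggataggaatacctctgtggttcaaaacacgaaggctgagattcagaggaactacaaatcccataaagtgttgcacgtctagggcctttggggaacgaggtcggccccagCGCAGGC
UQCRC1: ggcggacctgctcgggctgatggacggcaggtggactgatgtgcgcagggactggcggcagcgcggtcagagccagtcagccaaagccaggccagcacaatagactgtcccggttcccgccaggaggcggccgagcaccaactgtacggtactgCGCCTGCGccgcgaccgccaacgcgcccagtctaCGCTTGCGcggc
UQCRC2: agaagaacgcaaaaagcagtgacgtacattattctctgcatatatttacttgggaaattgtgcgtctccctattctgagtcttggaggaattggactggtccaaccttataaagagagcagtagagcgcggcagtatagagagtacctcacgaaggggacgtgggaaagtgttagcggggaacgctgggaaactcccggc
UQCR11: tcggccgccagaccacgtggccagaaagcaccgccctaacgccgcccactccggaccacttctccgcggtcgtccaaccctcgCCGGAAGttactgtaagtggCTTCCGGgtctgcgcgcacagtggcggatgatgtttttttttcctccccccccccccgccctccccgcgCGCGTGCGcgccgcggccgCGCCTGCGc
NDUFB4: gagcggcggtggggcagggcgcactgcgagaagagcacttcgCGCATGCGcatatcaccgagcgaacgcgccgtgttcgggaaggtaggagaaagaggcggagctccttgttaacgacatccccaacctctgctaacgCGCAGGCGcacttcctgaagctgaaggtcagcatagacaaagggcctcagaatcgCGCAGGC
COX7B: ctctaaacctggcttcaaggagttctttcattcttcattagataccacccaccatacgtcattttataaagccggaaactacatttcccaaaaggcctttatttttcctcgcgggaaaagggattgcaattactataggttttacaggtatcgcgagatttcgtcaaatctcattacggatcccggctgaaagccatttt

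UQCR10 and UQCRC1, both lower at 9 h, hold NRF1 cores, but so does UQCR11, whose experiments disagreed. COX7B, lower at both times, holds neither core in its window, and UQCRC2 holds neither as well. Over the matched genes the median log2 change at 9 h was -0.31 for the 21 with an NRF1 core and -0.34 for the 42 without, -0.26 and -0.34 for the ETS core, and -0.33 and -0.33 for the YY1 core. At 6 h the medians with and without were -0.29 and -0.24 for NRF1, -0.28 and -0.24 for ETS, and -0.31 and -0.24 for YY1. These differences were not tested. By complex, the NRF1 core was in 9 of 32 windows of complex I, 2 of 2 of complex II, 3 of 5 of complex III, 1 of 11 of complex IV and 6 of 13 of complex V.

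Complex IV, cytochrome c oxidase, reduces oxygen to water, and its small nuclear subunits surround a core encoded in mitochondrial DNA. Of 13 tested genes, 7 were lower in both experiments at 6 h (background 25%) and 6 at 9 h (background 29.5%), with medians of -0.24 and -0.20. COX7C, COX7A2 and COX7B had the most negative values of this complex at 6 h, and COX7B, COX7A2 and then COX6B1 at 9 h. COX7B read 1703 and 1351 at 0 h, 1178 and 778 at 6 h, then 1094 and 587 at 9 h, below 0 h throughout, with log2 changes of -0.66 ± 0.36 and -0.92 ± 0.36. COX7A2, the isoform of COX7A found in most tissues, read 1257 and 1208, then 952 and 573, then 939 and 481, or -0.74 ± 0.38 and -0.88 ± 0.38. COX7C read 2485 and 1703, then 1597 and 749, then 2052 and 1068. The 6 h arrays of COX7C were below both 0 h arrays, while at 9 h the groups overlapped, and its log2 changes were -0.91 ± 0.45 and -0.47 ± 0.45.

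When the 9 h array of experiment 2 was dropped, the 9 h log2 change of COX7A2 became -0.39 and that of COX7B -0.47. COX5A, which sits on the matrix side, read 1095 and 938 at 0 h, 932 and 563 at 6 h, then 972 and 657 at 9 h, or -0.49 ± 0.33 and -0.34 ± 0.33. COX6B1, on the intermembrane face, read 1242 and 1337 at 0 h, 1451 and 823 at 6 h, then 1232 and 656 at 9 h, a 9 h log2 change of -0.52 ± 0.38. Its 6 h arrays lay on either side of the 0 h arrays.

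Most other subunits of complex IV had smaller differences. COX4I1, the ubiquitous form of the regulatory subunit 4, read 2283 and 2301 at 0 h, 2269 and 2811 at 6 h, then 2161 and 2616 at 9 h, or 0.14 ± 0.22 and 0.05 ± 0.22. COX7A2L, which takes part in joining complexes III and IV into supercomplexes, read 1172 and 979 at 0 h, 1088 and 1059 at 6 h, then 1198 and 947 at 9 h. Its log2 changes were 0.00 ± 0.23 and -0.01 ± 0.23, smaller than their error. COX8A, the common form of subunit 8, read 2444 and 2161 at 0 h, 2182 and 1508 at 6 h, then 1433 and 2269 at 9 h, with the low 6 h and 9 h arrays from different experiments. COX5B and COX6C, further small subunits, had 9 h log2 changes of -0.20 ± 0.25 and -0.15 ± 0.37, although the other tested COX5B probe sets gave -0.44 and -0.55. COX6A1, of most tissues, differed by experiment, with 2831 and 3398 at 0 h, 2590 and 4543 at 6 h, then 1892 and 3879 at 9 h. The heart and skeletal muscle isoforms COX6A2 and COX7A1 read between 23 and 43.6 and between 4.4 and 24.2, near the floor.

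Complex V makes ATP with its F1 head, turned by the proton-driven ring of its membrane part, FO. Of 17 tested genes, 13 were lower in both experiments at 6 h (background 25%) and 11 at 9 h (background 29.5%), with medians of -0.32 and -0.38. The 5 genes of the F1 head had medians of -0.24 and -0.32, and the 10 of FO and the peripheral stalk -0.38 and -0.40. ATP5F1B, the catalytic beta subunit, read 3285 and 3052 at 0 h, 2229 and 2801 at 6 h, then 1913 and 2491 at 9 h. All later arrays were below both 0 h arrays, with log2 changes of -0.34 ± 0.23 and -0.54 ± 0.23. ATP5F1A, the alpha subunit, with 2426 and 1921 at 0 h and 2500 and 1779 at 9 h, overlapped between times (-0.03 ± 0.26 at 9 h).

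ATP5F1D, the delta subunit of the central stalk, read 322 and 380 at 0 h, 279 and 290 at 6 h, then 195 and 204 at 9 h. Its log2 change on this probe set was -0.30 at 6 h and -0.81 ± 0.27 at 9 h. The other probe set had -0.82 at 6 h and -0.74 at 9 h, so the timing depends on the probe set. ATP5PD, subunit d of the peripheral stalk, was lower at 6 h and at 9 h, with 1776 and 1814, then 1116 and 1421, then 1155 and 1238. Its log2 changes were -0.51 ± 0.22 and -0.59 ± 0.22. For the intensities printed, the pairs of both genes did not overlap with 0 h at either time.

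ATP5PO, the stalk subunit that confers oligomycin sensitivity, was low at 6 h and close to its start at 9 h. It read 1324 and 1264 at 0 h, 665 and 729 at 6 h, then 1184 and 957 at 9 h, with log2 changes of -0.89 ± 0.23 (adjusted p of 0.969 in limma) and -0.28 ± 0.23. Its second probe set was flat, with 157 and 134 at 0 h, 165 and 127 at 6 h, then 198 and 139 at 9 h, so the dip rests on 1 of 2 probe sets. ATP5MG, subunit g, and ATP5PB, subunit b of the stalk, read 1809 and 1942, and 1639 and 1977, at 0 h. At 9 h they read 2128 and 1540, and 2148 and 1668, which overlap with 0 h. ATP5MJ, a small membrane subunit, read 753 and 555, then 469 and 304, then 620 and 303, or -0.78 ± 0.41 and -0.58 ± 0.41.

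The genes ATP5MC1, ATP5MC2 and ATP5MC3 encode the same mature ring subunit c. ATP5MC1 read 548 and 423 at 0 h, 730 and 258 at 6 h, then 361 and 205 at 9 h, a 9 h log2 change of -0.82 ± 0.52. ATP5MC2 had closely matched pairs, with 949 and 918, then 791 and 736, then 735 and 729, or -0.29 ± 0.21 and -0.35 ± 0.21. ATP5MC3 had log2 changes of -0.55 ± 0.37 and -0.44 ± 0.37. All 3 were lower than both 0 h readings on both 9 h arrays except for ATP5MC3, whose 9 h array of experiment 1 (637) lay above the 0 h array of experiment 2 (585).

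ATP5IF1, which blocks the enzyme from running in reverse, read 464 and 443 at 0 h, 367 and 151 at 6 h, then 520 and 183 at 9 h. Experiment 1 was back above its start at 9 h while experiment 2 was not, and the log2 changes were -0.94 ± 0.58 and -0.56 ± 0.58.

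Between 6 h and 9 h the members showed no common direction. The median log2 change was -0.06, beside -0.01 over all tested genes; 26 genes were lower in both experiments (background 27.2%) and 17 were higher (background 27.4%). Both 9 h arrays lay below both 6 h arrays for 10 genes (background 15.4%) and above for 6 (background 14.8%). No member passed an adjusted p of 0.05 in limma (background 0%), and at an unadjusted p under 0.05 0 member probe sets were lower (background 2.58%) and 2 were higher (background 2.69%), 1 each of ATP5PO and UQCRB. CYC1, UQCR10, UQCRC1 and NDUFS7 were lower at 9 h than at 6 h, with log2 changes of -0.54, -0.49, -0.44 and -0.54. ATP5PO, NDUFAF1 and NDUFA5 were higher, with 0.61, 0.61 and 0.57. The sign of the median changed with the scaling of the arrays, to 0.16 with arrays scaled to one median.

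Genes around the respiratory chain were described by the same counts. The background over all tested genes at 9 h was 29.5% lower and 28% higher in both experiments. Of 16 tested regulators of respiratory gene expression, 11 (68.8%) were higher in both experiments at 9 h and 2 (12.5%) were lower, with a median of 0.32. MYC, a growth regulator, read 475 and 251 at 0 h, 410 and 810 at 6 h, then 870 and 629 at 9 h, a log2 change of 1.10 ± 0.44 at 9 h. GABPB1, a subunit of GABP, had 0.88 ± 0.47. POLRMT, the RNA polymerase of mitochondria, went the other way, with 286 and 310 at 0 h and 149 and 171 at 9 h, or -0.90 ± 0.29. None of these passed an adjusted p of 0.05 in limma without the experiment as a term. No probe set of the array did at 9 h (background 0%), so this does not tell these genes apart. Their calls with the term, where 0.359% of all probe sets passed, are not given here.

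Of 17 tested electron carriers and quinone-linked enzymes, 9 (52.9%) were lower and 3 (17.6%) higher in both experiments at 9 h, with a median of -0.08. CYCS, cytochrome c, which links complexes III and IV, read 1933 and 2438 at 0 h and 2608 and 2466 at 9 h, a log2 change of 0.22. ETFB, of the flavoprotein that feeds electrons from fat oxidation, had -0.91 ± 0.47. COQ8A and GPD2 had larger changes, -1.13 ± 0.48 and -0.98 ± 0.55. Of 17 tested genes of the citric acid cycle and pyruvate dehydrogenase, 6 (35.3%) were lower and 2 (11.8%) higher, with a median of -0.16 and with MDH2, malate dehydrogenase, at -0.48 ± 0.27. Of 22 tested carriers and import proteins, 12 (54.5%) were lower and 3 (13.6%) higher, with a median of -0.23, and TOMM22, a receptor of the outer membrane import pore, read 356 and 286 at 0 h and 109 and 95.1 at 9 h. Of 24 tested assembly factors, 10 (41.7%) were lower and 6 (25%) higher, with a median of -0.20. COA3, which helps translate and assemble cytochrome oxidase, had -1.15 ± 0.37. ATPAF2 and TTC19 were higher in both experiments, with 0.82 ± 0.63 and 0.78 ± 0.28.

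Medians of large complexes outside the respiratory chain were nearer to 0. The 50 mitochondrial ribosomal genes had -0.13 at 6 h and -0.15 at 9 h, the 51 cytosolic ribosomal genes -0.02 and 0.01, and the 34 proteasome genes -0.05 and -0.12. The respiratory members lay at -0.30 and -0.33. The 14 mesenchymal markers, which form no complex, had -0.04 and -0.37. These lists were not tested against each other.

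**Figure D5:**
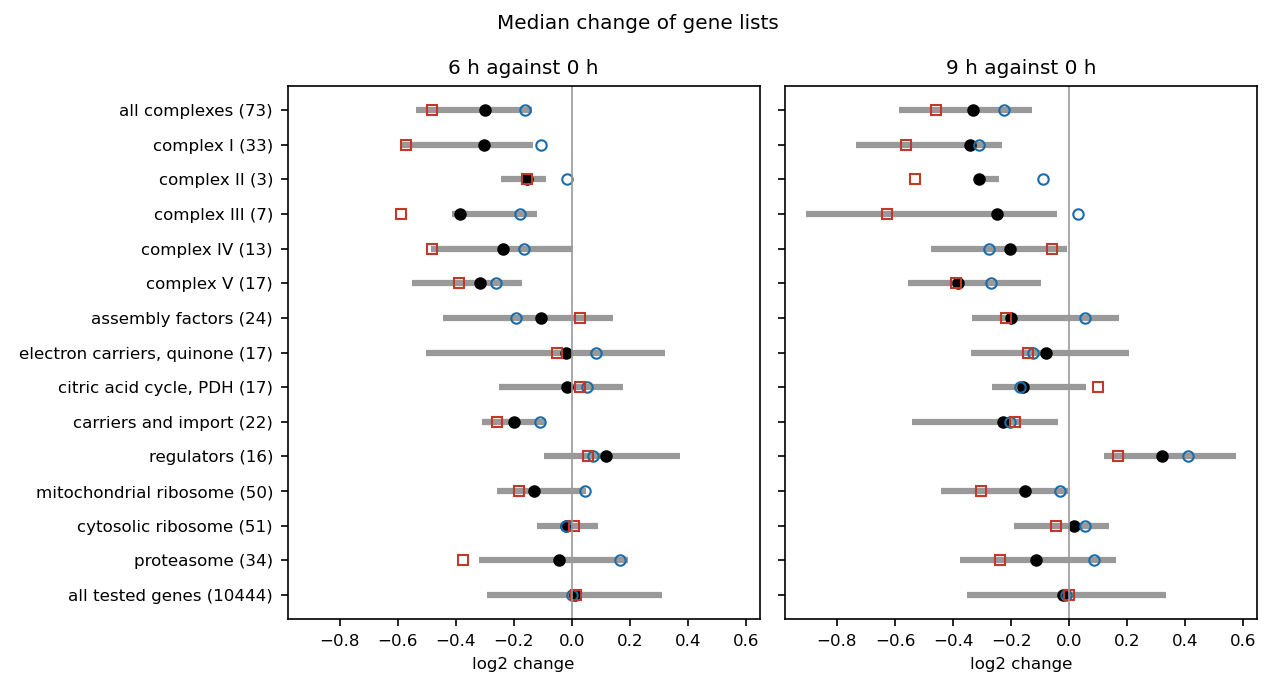
Median log2 change (black points) and quartiles (grey bars) of each gene list at 6 h (left) and 9 h (right) against 0 h, with the medians of experiment 1 (blue circles) and experiment 2 (red squares); the number of tested genes is in brackets. The median of all complexes lies at -0.30 and -0.33, and that of the regulators at 0.12 and 0.32.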

How the data were processed

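RNA of 6 samples was measured on Affymetrix arrays. The authors deposited 1 linear intensity per probe set and array, made with software not given in the sources used here. Probe sets were named from the platform table, and 9 that list several symbols, of which 8 were tested, stayed unnamed and uncounted. The highest and lowest trimmed means of the arrays differed 5.49-fold, so quantile normalisation was applied, then a floor at the 25th percentile of positive values and log2. After 68 control probe sets were left out, 18360 with at least 2 arrays above the floor entered limma 3.58.1 under R 4.3.3 (linear model, moderated with an intensity trend; 3 residual degrees of freedom; two-sided; Benjamini-Hochberg; threshold 0.05); ± values are its standard errors. The script was tested on simulated data.

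The experiment numbers were taken to pair the arrays when changes are given per experiment. The labels give RNA batches, and deviations of same-numbered arrays correlated at 0.247, 0.336 and 0.391 over probe sets. The main fit had no term for the experiment, so it leaves this pairing out. All ± values are from that fit, as are p-values unless the term is named. The lot line of the 6 h array of experiment 2 names experiment 1, while its title and description name experiment 2, which was used. Named genes are, per complex and comparison, up to 4 with the largest change of one sign in both experiments. Also named are those called, those with the nearest arrays at least 1.5-fold apart and the brightest. Of other lists, up to 3 among the larger changes are named. Any other gene was named with its values already seen. The members and lists were chosen with earlier results of these data known. The number of arrays limits the precision.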

Additional observations from a re-analysis of the deposited data

How the results depend on the processing

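Alternatives were other scalings, floors, filters, probe set choices, fits, blocks, the structural subunits alone and leaving out each array. Over 38 member genes and 15 settings, unscaled arrays aside, 524 (6 h against 0 h), 527 (9 h against 0 h) and 509 (9 h against 6 h) of 570 values moved by less than their spread or, for a call, stayed on the same side. The sign differed from the reported one in 25, 19 and 59 of the 570 values, in 11, 12 and 24 genes. Among these was UQCRC2, which at 9 h was -0.51 on its other probe set. With the replicate block (experiment number as a term), 1 member probe set passed the adjusted threshold at 9 h, UQCR10, and it changed no other call among members. Without scaling between arrays the member medians were -1.85 (6 h against 0 h), -0.95 (9 h against 0 h) and 0.89 (9 h against 6 h), beside -1.38, -0.58 and 0.79 for all tested genes, and 71, 70 and 0 member genes were lower in both experiments. With arrays scaled to one median, the 9 h against 6 h median of the members was 0.16, beside 0.11 for all tested genes. With the lot line as a block it was 0.063, beside -0.02 for all tested genes. Leaving out 1 array gave -0.43 to -0.17, -0.52 to -0.14 and -0.22 to 0.18 for the 3 medians. Genes below 0 numbered 51 of 73 at 6 h without the 6 h array of experiment 2 and 51 of 73 at 9 h without the 9 h array of experiment 2. In those settings the medians of all tested genes were -0.003 and -0.03. With all arrays, 64 and 63 member genes were below 0, beside 5080 and 5353 of all 10444 tested genes. The cause of these shifts was not tested. Signal over background limits 4 genes (COX7A1, NDUFAF5, NDUFAF7 and ATP5MC2P1) that were not above the floor on all arrays.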

Other observations

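Probe sets of 1 gene often differed in direction. Of 16 member genes with at least 2 probe sets above the floor on all arrays, all such probe sets had the same sign for 11 at 6 h, for 9 at 9 h and for 8 between 6 h and 9 h. ATP5F1C, the gamma subunit of ATP synthase, had 3, all below 0 at 6 h, with log2 changes from -0.34 to -0.09. COX4I1 had 2, both above 0 at 6 h, at 0.10 and 0.14. The 8 tested probe sets that list a member beside other symbols had medians of -0.14 at 6 h and -0.44 at 9 h.

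HSPE1, the small chaperonin of the mitochondrial matrix, read 947 and 782 at 0 h, 845 and 143 at 6 h, then 687 and 130 at 9 h, so that experiment 2 stood far below experiment 1 after induction. Its partner HSPD1 read 3339 and 3570 at 0 h, 3193 and 2141 at 6 h, then 2864 and 1860 at 9 h.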
